A study of Mus musculus with 6 samples.

Results

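Cell death through mitochondria is set by the BCL2 family of proteins, which act on each other at the outer mitochondrial membrane. Anti-apoptotic members hold the pore-forming effectors BAX and BAK in check, and the BH3-only members, named for a short helix called the BCL2 homology 3 (BH3) domain, bind the anti-apoptotic members or the effectors when a cell is damaged or stressed. In macrophages, the anti-apoptotic proteins A1 (encoded by the *Bcl2a1* genes) and MCL1 are known for keeping cells alive during inflammation. The transcripts of 10 family genes, chosen by name from the 24786 gene symbols measured, were examined in Raw264.7 cells with reduced *Etv5*. The anti-apoptotic members were *Bcl2*, *Bcl2l1*, *Mcl1*, *Bcl2a1a*, *Bcl2a1b* and *Bcl2a1d*, and the BH3-only members were *Bcl2l11* (which encodes BIM), *Bbc3* (PUMA), *Pmaip1* (NOXA) and *Bid*.

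Raw264.7 is a mouse macrophage line from a tumor induced by Abelson murine leukemia virus, and the sample labels give its strain as C57BL/6. Cells carried a control shRNA (sh-NC, genotype control, n = 3 libraries) or an shRNA against the ETS transcription factor *Etv5* (sh-*Etv5*, genotype Etv5 knockdown, n = 3 libraries). Per the study's methods, lentivirus-infected cells were kept in puromycin, so both groups carry a viral vector. The labels name 24 or 48 h after infection without assigning a time to a library. The paper describes the sequenced cells as stably transfected. Which of the study's shRNAs was sequenced, and whether each library had its own infection, is not stated in the sources used here, so that p-values may measure only technical spread. Expression was given as RPKM, a read count scaled by the length of the gene and by the mapped reads of the library, and the number of reads is unknown. Levels of different genes may therefore be set side by side per length, but no counting error can be given.

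The target *Etv5* measured 9.18, 9.89 and 9.39 RPKM under the control shRNA and 5.19, 4.91 and 5.28 RPKM under the *Etv5* shRNA, and its mean fell by 46.0%. Of 10 macrophage markers, 9 were at 1 RPKM or above in every library, and *Mertk* was at 0.0653 RPKM or below. Among these 9, 4 rose and 4 fell with sh-*Etv5*, including *Adgre1* (F4/80, 4.35-fold higher) and *Csf1r* (which fell by 43.2%), and the summed level of the 10 was 4490 to 4616 RPKM in sh-NC and 3587 to 3704 RPKM in sh-*Etv5* cells. The 15 markers of fibroblasts, epithelium, endothelium, lymphocytes and early myeloid cells each stayed at 0.759 RPKM or below. Their summed level was 0.276 to 0.608 RPKM in sh-NC and 1.37 to 1.60 RPKM in sh-*Etv5* cells, and the part of such traces, or of the shift in macrophage markers, in the results was not tested. In bulk RNA of this kind, fewer cells that make a transcript and less transcript per cell cannot be told apart. RPKM values summed to between 320462 and 340257 per library.

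Expression was compared with limma on log2(RPKM + 1) over the 10738 genes with at least 1 RPKM in at least 3 libraries, and genes were called at a Benjamini-Hochberg adjusted p-value under 0.05. All 10 family members passed that filter. Of these, 7 were higher in sh-*Etv5* cells, 1 was lower and 2 were not called, where 33.3% of all tested genes were higher, 41.0% were lower and 74.3% were called in either direction. The median log2 fold change of the members was 0.94, compared with -0.05 over all tested genes. An absolute log2 fold change above 1 was reached by 5 of the 10 members and by 9.23% of tested genes. Groups without overlapping libraries were seen for 8 members and for 76.4% of tested genes. These counts enter the near-identical *Bcl2a1* copies as 3 members. With the copies replaced by their sum (log2 fold change 0.96, so not above 1), 6 were called, 5 higher and 1 lower. On this log2 scale the change of a gene with low RPKM is understated, and 0.1 is the lowest p-value that exact permutation of 3 and 3 libraries allows. No measurement of cell death accompanies these libraries.

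**Figure D1:**
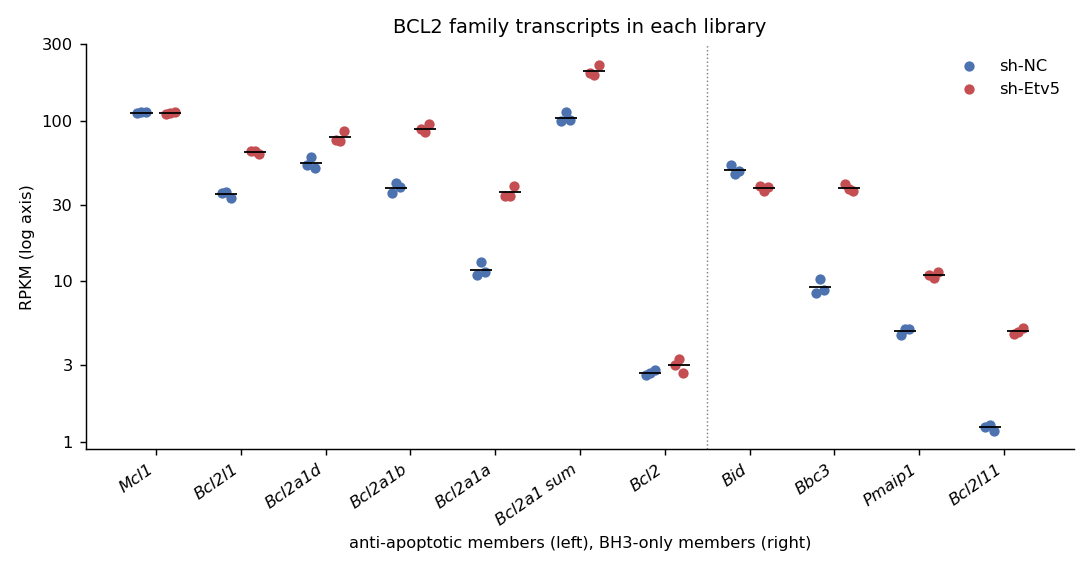
RPKM of each family member (log axis) in the 3 sh-NC (blue) and 3 sh-*Etv5* (red) libraries, with a black line at each group mean; Bcl2a1 sum is the sum of the *Bcl2a1* rows. *Mcl1* and *Bcl2* overlap between the groups, *Bid* is lower in sh-*Etv5* cells and the other members are higher.

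The BH3 domain is the sequence feature after which the death-promoting members are named, and anti-apoptotic members also carry a form of it. Its hallmark is a leucine followed 5 residues later by an aspartate. The pattern searched was stricter, since it also asked for isoleucine, valine, methionine, alanine or leucine and then glycine or alanine just before the aspartate. The coding stretches that hold this pattern are shown for the members in which it occurred at 1 place, 5′ to 3′ on the coding strand, with the codons of the leucine and the aspartate in capitals. All lie in coding exons of the principal transcript (GENCODE release M21, GRCm38).
Bcl2l11 (chr2:128147144-128147173, plus strand, exon 3 of 4): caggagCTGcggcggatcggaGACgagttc
Bbc3 (chr7:16313767-16313796, plus strand, exon 3 of 4): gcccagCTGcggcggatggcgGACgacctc
Bid (chr6:120897292-120897321, minus strand, exon 4 of 6): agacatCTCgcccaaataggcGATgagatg
Mcl1 (chr3:95659430-95659459, plus strand, exon 1 of 3): gagaccCTGcggcgcgtgggcGACggcgtg
Bcl2l1 (chr2:152829700-152829729, minus strand, exon 2 of 3): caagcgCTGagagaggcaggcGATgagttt
Bcl2 (chr1:106712578-106712607, minus strand, exon 1 of 2): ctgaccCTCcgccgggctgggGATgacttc
The stretches of *Bcl2l11*, *Bbc3*, *Mcl1*, *Bcl2l1*, *Bcl2* and *Bid* share the leucine and the aspartate. The codons are CTG and GAC in *Bcl2l11*, *Bbc3* and *Mcl1*, CTG and GAT in *Bcl2l1*, and CTC and GAT in *Bcl2* and *Bid*. The other bases are shared only in part. No 50-base sequence of *Bcl2l1*, *Mcl1*, *Bbc3*, *Pmaip1* or *Bid* transcripts, read on the transcribed strand, occurs in a transcript of another gene. *Pmaip1* held 2 such matches. The *Bcl2a1* genes held no match to this stricter pattern, which says nothing on whether or how their proteins bind.

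The anti-apoptotic genes moved unequally. *Mcl1*, whose protein is short-lived, stood at 111, 113 and 113 RPKM under sh-NC and at 109, 111 and 114 RPKM under sh-*Etv5*. The groups overlapped, and its log2 fold change of -0.01 had a 95% confidence interval of -0.08 to 0.06 (limma adjusted p = 0.769). *Bcl2*, the founding member of the family, was low in both groups, at 2.61, 2.66 and 2.81 RPKM in sh-NC and at 3.004, 3.26 and 2.69 RPKM in sh-*Etv5* libraries. The sh-*Etv5* library with the lowest *Bcl2* lay within the sh-NC range, and the log2 fold change of 0.11 was not called (limma adjusted p = 0.215, 95% confidence interval -0.06 to 0.27). Exons of *Bcl2* overlap the antisense gene *D630008O14Rik* over 558 bases, and strand-specific counting is not stated in the sources used here.

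*Bcl2l1*, which encodes the anti-apoptotic protein BCL-XL, was higher in every sh-*Etv5* library. It was at 35.4, 36.0 and 32.8 RPKM in sh-NC cells and at 64.7, 65.0 and 62.1 RPKM in sh-*Etv5* cells. The mean rose 1.84-fold, from 34.8 ± 1.71 to 64.0 ± 1.59 RPKM (SD, n = 3). On the log2 scale this was 0.86 with a standard error of 0.043 (limma adjusted p = 1.21e-08). *Bcl2l1* can be spliced into a long anti-apoptotic form and a short form that promotes death, and a value per gene does not tell these forms apart.

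*Bcl2a1a*, *Bcl2a1b* and *Bcl2a1d* encode near-identical copies of A1, an NF-κB-induced survival protein of activated leukocytes. They lie on chromosome 9 in GRCm38, *Bcl2a1d* on the minus strand from 88723285 to 88731914, *Bcl2a1a* on the plus strand from 88956900 to 88962419 and *Bcl2a1b* on the plus strand from 89199209 to 89207827. Their coding sequences, 516 bases each without the stop codon, differ from one another at 12 positions. Because these positions decide to which copy a read can be assigned, the first 60 coding bases, which hold 6 of the 12, are printed with differing positions in capitals. All lie in exon 1 of 2.
Bcl2a1a (chr9:88957051-88957110, plus strand): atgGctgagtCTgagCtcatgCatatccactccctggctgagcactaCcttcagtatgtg
Bcl2a1b (chr9:89199360-89199419, plus strand): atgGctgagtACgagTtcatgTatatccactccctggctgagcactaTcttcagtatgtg
Bcl2a1d (chr9:88731660-88731719, minus strand): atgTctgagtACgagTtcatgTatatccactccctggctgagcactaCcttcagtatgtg
Of the 50-base sequences in their transcripts, 69.0% of *Bcl2a1a*, 79.2% of *Bcl2a1b* and 79.5% of *Bcl2a1d* also occur in another gene, namely another copy, *Bcl2a1c* or *Gm29094*, a model that shares an exon with *Bcl2a1b*. The sources used here do not state how reads that match several copies were counted. The reference is from C57BL/6J, whereas Raw264.7 is generally described as a BALB/c line in spite of its label, so the differing positions may not be those of the cells. The copies were therefore read mainly by their sum.

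Together, the *Bcl2a1* copies summed to 99.4, 113 and 101 RPKM under sh-NC and to 198, 193 and 220.5 RPKM under sh-*Etv5*. Every sh-*Etv5* library lay above every sh-NC library, and the summed mean rose 1.95-fold, from 104 ± 7.76 to 204 ± 14.5 RPKM (SD, n = 3). Entered as 1 gene in the limma fit, the sum changed by 0.96 on the log2 scale, with a standard error of 0.059 (limma adjusted p = 6.71e-08). *Bcl2a1c*, an intronless relative on the same chromosome, was listed at 0 RPKM in all 6 libraries.

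Read singly, each copy was higher in every sh-*Etv5* library, but by different amounts. *Bcl2a1a* was at 10.9, 13.1 and 11.4 RPKM in sh-NC and at 33.7, 34.0 and 39.4 RPKM in sh-*Etv5* cells, a log2 fold change of 1.52 (95% confidence interval 1.36 to 1.68). *Bcl2a1b* was at 35.5, 40.9 and 38.3 RPKM in sh-NC and at 88.1, 84.5 and 95.2 RPKM in sh-*Etv5* cells, a log2 fold change of 1.20 (1.08 to 1.33). *Bcl2a1d* was at 53.0, 59.4 and 50.8 RPKM in sh-NC and at 76.2, 74.8 and 85.9 RPKM in sh-*Etv5* cells, a log2 fold change of 0.53 (0.39 to 0.67). The limma adjusted p-values were 8.79e-09, 7.73e-09 and 1.77e-05 in that order. As a result, *Bcl2a1d* had the highest level of the copies in sh-NC cells and *Bcl2a1b* in sh-*Etv5* cells. The ratio of *Bcl2a1a* to *Bcl2a1d* was 0.217 ± 0.00929 in sh-NC and 0.452 ± 0.00798 in sh-*Etv5* cells (SD, n = 3, exact two-sided permutation p = 0.1, the smallest possible). Whether this shift between copies arises in the assignment of shared reads was not tested.

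Among the BH3-only genes, *Bbc3* changed most. PUMA, its product, is a broad binder of anti-apoptotic proteins and is induced by p53 and by stress of the endoplasmic reticulum (ER). *Bbc3* measured 8.46, 10.2 and 8.85 RPKM under sh-NC and 40.4, 37.3 and 36.3 RPKM under sh-*Etv5*. The groups lay far apart, and the mean rose 4.14-fold, from 9.18 ± 0.939 to 38.0 ± 2.14 RPKM (SD, n = 3). Its change of 1.94 on the log2 scale (standard error 0.0667, limma adjusted p = 6.5e-10) placed *Bbc3* at rank 208 of the 10738 tested genes by absolute change.

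*Bcl2l11* encodes BIM, the BH3-only protein that removes leukocytes after loss of survival signals and also responds to ER stress. It was at 1.24, 1.27 and 1.16 RPKM in sh-NC and at 4.72, 4.82 and 5.08 RPKM in sh-*Etv5* cells. The mean rose 3.97-fold, from 1.23 ± 0.0557 to 4.87 ± 0.185 RPKM (SD, n = 3). Because sh-NC levels were close to the pseudocount, the change was 1.40 on the log2(RPKM + 1) scale (standard error 0.068, limma adjusted p = 9.87e-09) and 1.98 with a pseudocount of 0.01. Even after this rise *Bcl2l11* remained the lowest of the BH3-only members per length.

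*Pmaip1* encodes NOXA, which binds MCL1 and A1 and promotes the breakdown of MCL1. It was at 4.65, 5.01 and 5.06 RPKM in sh-NC and at 10.9, 10.5 and 11.4 RPKM in sh-*Etv5* cells. The mean rose 2.22-fold, from 4.91 ± 0.224 to 10.9 ± 0.431 RPKM (SD, n = 3, log2 fold change 1.01, standard error 0.0571, limma adjusted p = 3.27e-08). With *Mcl1* close to level, the ratio of *Mcl1* to *Pmaip1* transcripts was 23.8, 22.5 and 22.3 in sh-NC and 10.0, 10.6 and 10.0 in sh-*Etv5* libraries (exact two-sided permutation p = 0.1, the smallest possible). The ratio of the *Bcl2a1* sum to *Pmaip1* was also lower in every sh-*Etv5* library, at 21.3 ± 1.38 in sh-NC and 18.7 ± 0.654 in sh-*Etv5* cells (SD, n = 3, exact two-sided permutation p = 0.1, the smallest possible).

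*Bid*, whose protein is cut by caspase 8 and carries death receptor signals to mitochondria, was the member that fell. It was at 52.5, 46.4 and 48.6 RPKM in sh-NC and at 38.9, 36.7 and 38.7 RPKM in sh-*Etv5* cells. All sh-*Etv5* libraries lay below all sh-NC libraries, and the mean fell by 22.6%. Group means were 49.2 ± 3.10 and 38.1 ± 1.24 RPKM (SD, n = 3), with -0.36 on the log2 scale (standard error 0.0486, limma adjusted p = 4.55e-05). Exons of *Bid* overlap those of the family gene *Bcl2l13* on the opposite strand over 628 bases, so reads there cannot be told apart without strand. In sh-NC cells *Bid* was the highest BH3-only transcript, whereas in sh-*Etv5* cells *Bid* and *Bbc3* were at 38.1 ± 1.24 and 38.0 ± 2.14 RPKM, which did not differ beyond their spread.

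**Figure D2:**
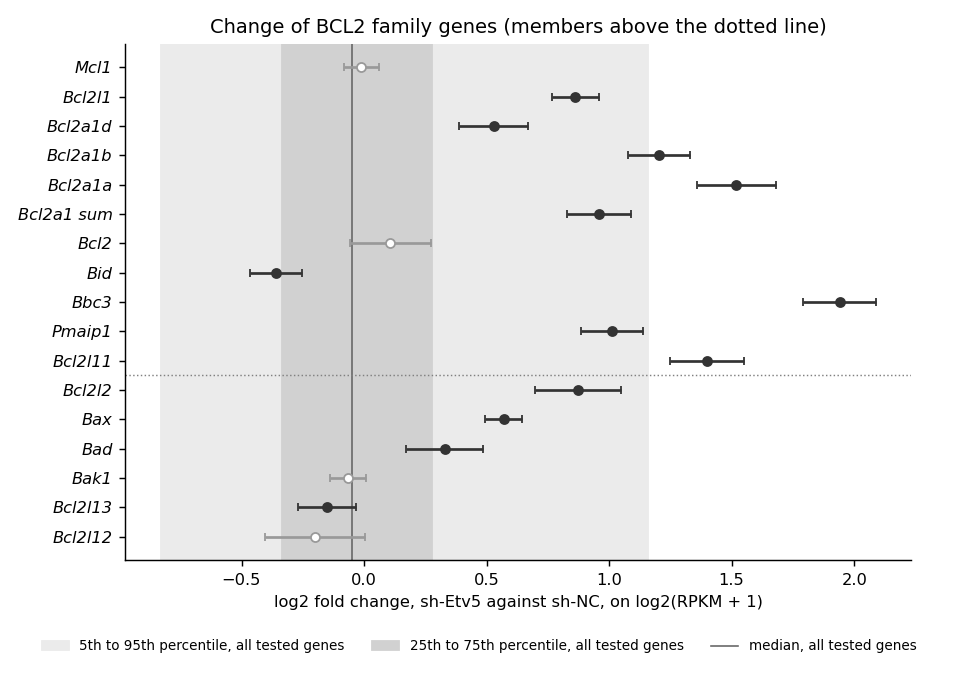
Log2 fold change of the members and, below the dotted line, of other BCL2 family genes (points) with 95% confidence intervals (bars) from limma; filled points were called. The grey bands give the spread over all tested genes, and *Bbc3*, *Bcl2a1a*, *Bcl2l11* and *Bcl2a1b* lie above its 95th percentile of 1.16. The *Bcl2a1* sum, at 0.96, lies below that percentile.

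Summed per length, both arms of the family were higher in sh-*Etv5* cells. The anti-apoptotic members added up to 254 ± 9.30 RPKM in sh-NC and 382 ± 14.5 RPKM in sh-*Etv5* cells, and the BH3-only members to 64.5 ± 2.09 and 91.9 ± 2.84 RPKM (SD, n = 3). The ratio of these sums was 3.71, 4.21 and 3.91 in the sh-NC libraries and 3.95, 4.17 and 4.36 in the sh-*Etv5* libraries, so that the groups overlapped. These sums are descriptions, and no test was made on them.

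The make-up of each arm differed between the groups more than the ratio of the sums did. *Mcl1* made up 44.2 ± 1.44% of the anti-apoptotic RPKM in sh-NC and 29.1 ± 0.685% in sh-*Etv5* cells (SD, n = 3). The *Bcl2a1* sum went from 41.1 ± 1.52% to 53.3 ± 1.77%, and *Bcl2l1* from 13.7 ± 0.548% to 16.8 ± 1.03%. *Bcl2* was 1.06% and 0.784% of this sum. On the BH3-only side *Bid* went from 76.2 ± 2.41% to 41.4 ± 0.752% and *Bbc3* from 14.3 ± 1.84% to 41.4 ± 1.48%. *Pmaip1* made up 7.62% and 11.9%, and *Bcl2l11* 1.90% and 5.31%. The order of the anti-apoptotic levels in sh-NC cells was *Mcl1*, the *Bcl2a1* sum, *Bcl2l1* and *Bcl2*, of which the *Mcl1* libraries (111 to 113 RPKM) and the *Bcl2a1* sums (99.4 to 113 RPKM) overlapped. In sh-*Etv5* cells the *Bcl2a1* sum stood above *Mcl1* in every library.

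**Figure D3:**
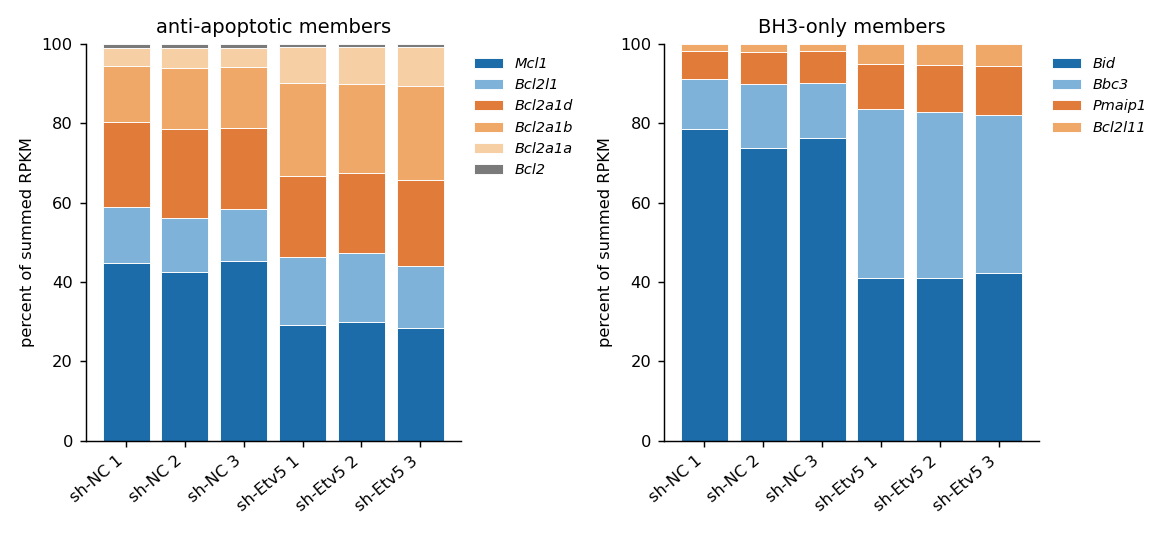
Share of each gene in the summed RPKM of the anti-apoptotic members (left) and of the BH3-only members (right), as a percent per library. In sh-*Etv5* libraries *Mcl1* takes 28.5 to 29.8% and *Bid* 41.0 to 42.3%, below their shares in each sh-NC library.

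Of 14 further family genes, 6 passed the filter on low values, of which 3 were higher, 1 was lower and 2 were not called, with a median log2 fold change of 0.13. Over all tested genes, 33.3% were higher, 41.0% were lower and the median was -0.05. *Bax*, an effector that forms the pore in the outer membrane, had the highest level of any family gene per length and rose from 193 ± 6.42 to 287 ± 4.17 RPKM (SD, n = 3, log2 fold change 0.57, limma adjusted p = 5.1e-08). *Bak1*, the other main effector, was at 85.0 ± 1.87 and 81.3 ± 1.06 RPKM (SD, n = 3) and was not called (log2 fold change -0.06, limma adjusted p = 0.103), although with libraries rescaled to the same sum it was lower at a limma adjusted p of 0.00637. The ratio of *Bax* to *Bak1* was thus 2.27 ± 0.0391 in sh-NC and 3.53 ± 0.0333 in sh-*Etv5* cells (SD, n = 3). Of the 50-base sequences of *Bax*, 8.51% occur in *Gm45808*, a model on the same strand. Exons of *Bak1* overlap *Ggnbp1* on the opposite strand over 614 bases.

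*Bcl2l2*, which encodes the anti-apoptotic protein BCL-W, rose from 4.79 ± 0.188 to 9.64 ± 1.21 RPKM (SD, n = 3, log2 fold change 0.87, limma adjusted p = 1.68e-06), and 12.1% of its 50-base sequences occur in the overlapping model *Gm20521*. *Bad*, a BH3-only gene whose product is silenced by phosphorylation, was at 9.10, 8.99 and 10.9 RPKM in sh-NC and at 12.8, 11.7 and 12.6 RPKM in sh-*Etv5* cells (log2 fold change 0.33, limma adjusted p = 0.00147). Its exons overlap *Gpr137* on the opposite strand over 524 bases. *Bcl2l13*, which overlaps *Bid*, changed by -0.15 on the log2 scale (limma adjusted p = 0.0243). That call was lost without sh-NC replicate 1 (limma adjusted p = 0.0561), without sh-NC replicate 2 (0.101) or without sh-*Etv5* replicate 2 (0.0592). *Bcl2l12* changed by -0.20 (limma adjusted p = 0.0696) and passed the threshold when sh-NC replicate 2 (0.0389) or sh-*Etv5* replicate 3 (0.0386) was left out. Exons of *Bcl2l12* overlap *Irf3* and *Gm15545* on the opposite strand, over at most 572 bases.

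The other 8 family genes were under the filter. *Bik*, a BH3-only gene of the ER membrane, was at 0.0345, 0.0470 and 0.0516 RPKM in sh-NC and at 1.71, 0.939 and 1.90 RPKM in sh-*Etv5* cells. Every sh-*Etv5* library thus lay above every sh-NC library, and without the filter the change of *Bik* was 1.25 on the log2 scale (limma adjusted p = 0.00528). *Bok*, an effector relative, was at 0.155, 0.155 and 0.185 RPKM in sh-NC and at 0.0886, 0.0244 and 0.0657 RPKM in sh-*Etv5* cells. These values are near 0, with every sh-*Etv5* library below every sh-NC library. Without the filter the change of *Bok* was -0.14 on the log2 scale (limma adjusted p = 0.0184). *Bmf* and *Bcl2l15* were at 0.410 RPKM or below. *Bcl2l14* reached 0.284 RPKM in sh-*Etv5* replicate 3, *Hrk* was at 0.00901 RPKM or below, and *Bcl2l10* and *Bcl2a1c* were listed at 0 RPKM throughout.

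The genes downstream of the mitochondrial step mostly had small changes. Of 10 genes of mitochondrial exit and the apoptosome, 2 were higher, 6 lower and 2 not called, with a median log2 fold change of -0.22. *Apaf1*, the scaffold on which caspase 9 is activated, rose from 6.20 ± 0.363 to 8.74 ± 0.596 RPKM, *Vdac3*, an outer membrane channel, rose from 32.6 ± 1.29 to 44.0 ± 2.36 RPKM, and *Htra2*, a protease released from mitochondria, fell from 77.9 ± 3.14 to 59.0 ± 1.80 RPKM (SD, n = 3). Of 10 caspases and caspase substrates, 2 were higher and 8 lower, with a median of -0.30. For all tested genes, 33.3% were higher and 41.0% lower, with a median of -0.05. *Casp2*, a caspase linked to genotoxic stress, fell by 47.8%, and *Acin1*, a substrate that acts in chromatin condensation, fell by 43.1%. The limma adjusted p-values of these 5 genes lay between 5.75e-08 for *Acin1* and 0.000103 for *Apaf1*.

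Of 8 inhibitor of apoptosis (IAP) genes, 4 were higher, 2 lower and 2 not called, with a median log2 fold change of 0.15. Among all tested genes, 33.3% were higher and 41.0% lower. *Birc5*, which encodes survivin, a protein of dividing cells, fell from 28.2 ± 0.544 to 8.52 ± 0.233 RPKM (log2 fold change -1.62, limma adjusted p = 1.12e-10). *Birc6*, a large ubiquitin ligase, was at -0.66 on the log2 scale (limma adjusted p = 2.14e-06). *Naip5*, a sensor of bacterial flagellin, rose from 2.25 ± 0.218 to 5.16 ± 0.394 RPKM (SD, n = 3, limma adjusted p = 9.1e-07), though reads of the similar *Naip* genes may be split among them.

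The route that feeds *Bid* from the cell surface was examined as 8 death receptor and complex genes, of which *Fas* passed the filter only through the sh-*Etv5* libraries. Of the other 7, 4 were higher, 2 lower and 1 not called, with a median log2 fold change of 0.21. The shares over all tested genes were 33.3% higher and 41.0% lower. *Fas*, a death receptor, was at 0.214, 0.507 and 0.225 RPKM in sh-NC and at 5.11, 4.29 and 5.21 RPKM in sh-*Etv5* cells, and is given without a test. *Cflar*, which encodes the caspase 8 inhibitor c-FLIP, rose 2.34-fold, from 8.04 ± 0.491 to 18.8 ± 0.895 RPKM (SD, n = 3, limma adjusted p = 1.24e-08). *Tnfrsf10b*, the mouse TRAIL receptor, rose from 1.13 ± 0.106 to 2.71 ± 0.109 RPKM (SD, n = 3, limma adjusted p = 2.42e-06). Of the adaptors, *Traf2* fell by 32.5% and *Fadd* fell by 31.7% (limma adjusted p = 5.09e-06 and 4.28e-05), whereas *Tradd* had a log2 fold change of 0.32.

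**Figure D4:**
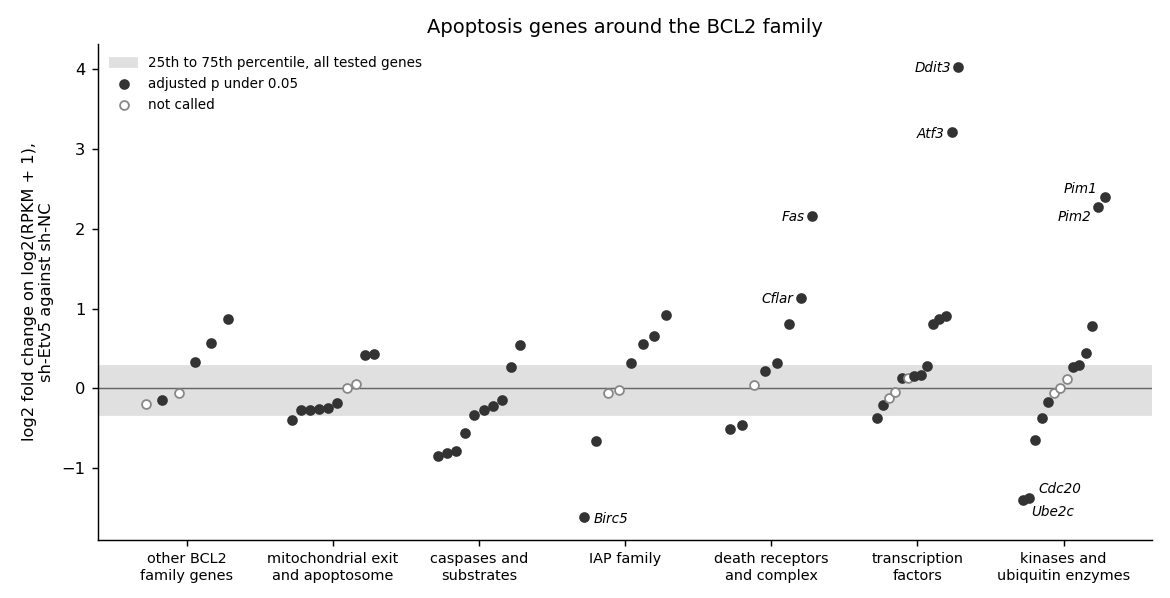
Log2 fold change of every tested gene in the lists around the BCL2 family (points; filled where the adjusted p was under 0.05), with the band from the 25th to the 75th percentile of all tested genes. Genes with an absolute log2 fold change above 1 are named, from *Birc5* (-1.62) to *Ddit3* (4.04). The *Fas* point is drawn filled, but *Fas* passed the filter only through the sh-*Etv5* libraries, so its fill is not read as a test.

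Of 14 tested transcription factors known to control family genes, 9 were higher, 2 lower and 3 not called, with a median log2 fold change of 0.16. *Ddit3* (CHOP) and *Atf4*, factors of the stress response that are known to act on *Bcl2l11*, *Bbc3* and *Pmaip1*, had log2 fold changes of 4.04 and 0.91, and *Atf3* had 3.21 (limma adjusted p = 1.29e-13, 8.86e-10 and 1.53e-13). *Trp53*, which encodes p53, another activator of *Bbc3* and *Pmaip1*, fell from 115 to 88.8 RPKM, with a log2 fold change of -0.37. *Stat3* and *Rel* had larger absolute changes than *Trp53*, at 0.87 and 0.80, and *Foxo3* had 0.27. Which of these factors acts on the members in these cells was not tested. Of 14 tested kinases and ubiquitin enzymes that act on family proteins, 6 were higher, 5 lower and 3 not called, with a median of 0.06. For both lists, the shares over all tested genes were 33.3% higher and 41.0% lower. *Pim1* and *Pim2*, survival kinases that phosphorylate BAD, rose 5.86-fold and 6.02-fold, to 42.9 ± 2.16 and 19.4 ± 0.757 RPKM (SD, n = 3), and *Ube2c*, a ubiquitin-conjugating enzyme of mitosis, changed by -1.40 on the log2 scale (limma adjusted p = 1.06e-11, 1.15e-10 and 3.11e-11). Transcript levels do not measure the activity of these proteins.

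Promoter windows (250 bases before to 50 after the start, RefSeq, GRCm38.p6) were present for 9 of the 10 members, *Pmaip1* being the exception. They were searched on both strands for the ETS sequence CCGGAAG, the κB consensus, the C/EBP-ATF element TGATGNAA and TGANTCA, which covers AP-1 sites. CCGGAAG, one form of the site bound by ETV5 and other ETS factors, occurred in windows of *Mcl1*, *Bcl2l11* and *Bcl2l1*. That is 3 of 9 members, compared with 9.93% of all genes with a window. Of these members, *Mcl1* was not called and the others rose. Looser forms, such as GGAA alone, were not searched, so the other windows may hold them. The stretches are printed on the gene's strand with the match in capitals, which reads CTTCCGG where it is on the opposite strand.
Mcl1 (chr3:95658647-95658676, plus strand): gagcgctccggCCGGAAGaggcgcggagtg
Bcl2l11 (chr2:128125922-128125951, plus strand): gtggggcttacCTTCCGGcttgccgggggc
Bcl2l1 (chr2:152831679-152831708, minus strand): gcgctgccgcggcaCCGGAAGtggctgcgc
The match begins 63 bases before the start in *Mcl1*, 105 bases before it in *Bcl2l11*, and at base 35 after the start of the most upstream of 3 windows in *Bcl2l1*.

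The *Bcl2a1* windows were nearly identical, with 98.0 to 99.2% of aligned bases shared, and so matched alike. Each held TGANTCA, found in 8.97% of all genes, and TGATGNAA, found in 4.51%. A stretch upstream of the annotated starts is shown because these 3 copies share it but for 6 bases, which *Bcl2a1d* lacks in the GA-rich run after the TGANTCA match (in capitals).
Bcl2a1a (chr9:88956774-88956833, plus strand): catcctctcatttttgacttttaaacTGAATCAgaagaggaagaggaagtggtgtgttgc
Bcl2a1b (chr9:89199083-89199142, plus strand): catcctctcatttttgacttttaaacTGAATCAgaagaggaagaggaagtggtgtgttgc
Bcl2a1d (chr9:88731931-88731990, minus strand): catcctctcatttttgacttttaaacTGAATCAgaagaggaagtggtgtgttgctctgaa
The κB consensus occurred in windows of *Bbc3* and *Bcl2l1* and in 5.14% of all genes. The *Bbc3* match, in capitals, lies 137 bases before the start of the principal transcript and within an intron of a longer transcript.
Bbc3 (chr7:16309436-16309465, plus strand): tctggctgccGGGAAACCCCccgcgccgag
Matches of this kind describe the letters in these windows, and binding was not measured in these libraries.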

How the data were processed

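RNA of Raw264.7 cells was sequenced in 3 sh-NC and 3 sh-*Etv5* libraries prepared with a TruSeq RNA kit. The authors deposited RPKM values, computed from coverage tracks, with 1 row for each gene symbol. The build is mm10 per the submitters' processing notes, and the aligner, annotation and strand setting are not given in the sources used here. Groups came from the sample labels. A strongly changed abundant gene can shift all other RPKM values, and depth and counting error are unknown.

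On log2(RPKM + 1), genes that reached 1 RPKM in 3 or more libraries were compared by limma 3.58.1 (R 4.3.3, eBayes with intensity trend, two-sided, no covariate, Benjamini-Hochberg adjustment over all tested genes). The *Bcl2a1* rows were also replaced by their sum. In simulated data for 10738 genes, 83 of 100 genes changed by 0.5 and 99 of 100 changed by 1 (log2) were recovered, with 13 unchanged genes called. The simulation changed 200 genes, whereas 74.3% of tested genes were called in the data, so its rates need not hold there. Gene models and 50-base sequences came from GENCODE M21 (24255 of 24786 symbols matched), and promoters from RefSeq GRCm38.p6, read with Python 3.11.15 and Biopython 1.88. GRCm38 is the same assembly as mm10.

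Members and lists were chosen with earlier results of these data known. Named genes were every member, *Etv5*, every other family gene and, per further list, the 3 called genes with the largest change, of which 1 is not reported here. *Trp53*, *Stat3*, *Rel*, *Foxo3*, *Mertk*, *Adgre1*, *Csf1r*, *Traf2*, *Fadd*, *Tradd* and the overlapping models were named after their values were seen. Alternatives were other pseudocounts, filters, scalings, no trend, the replicate block, the *Bcl2a1* sum and each library left out in turn.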

Additional observations from a re-analysis of the deposited data

How the results depend on the processing

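Among the members, the 8 calls and their directions held under each alternative in which the gene was tested, and *Mcl1* and *Bcl2* passed the threshold under none (limma adjusted p 0.0539 to 0.949 for *Mcl1* and 0.0891 to 0.801 for *Bcl2*). The log2 fold change of *Mcl1*, close to 0 throughout, was 0.0028 without sh-*Etv5* replicate 1 and negative otherwise, down to -0.025 with another library left out (without sh-*Etv5* replicate 3) and to -0.07 with libraries rescaled to the same sum. With a mean RPKM of at least 5 required, *Bcl2* and *Bcl2l11* were not tested. The *Bcl2a1* sum lay between 0.90 and 1.02 on the log2 scale over its alternatives. The number of genes called over all tested genes was 6092 to 8051 against 7974, and 7334 to 7570 with a library left out. A fit with a replicate block called 7900 genes, 7813 of them also without it, and the 8 members stayed called. This block also put *Bcl2l12* past the threshold (limma adjusted p = 0.0473), as did quantile normalization (0.0347) and rescaling to the same sum (0.0267). Deviations from the group means of same-numbered libraries correlated at 0.074, -0.071 and -0.035, and those of differently numbered libraries at -0.071 to 0.105. With so few libraries, this cannot tell whether same-numbered libraries were prepared together. Of 1218 values for 77 single genes under these alternatives, 1190 kept their direction and side of the threshold, 21 lost the call, 6 gained it and 1 changed sign. The unknown read depth limits what can be said of genes near 0 RPKM.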
